A study of Mus musculus with 2 samples.

Results

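The genes described here are 6 proteases that act on extracellular matrix, Mmp2, Mmp3, Mmp9, Mmp12, Mmp14 and Ctsk, and 3 tissue inhibitors of metalloproteinases, Timp1, Timp2 and Timp3. They were taken by name, and all 9 were found among the 27998 genes listed in the count tables. Each was followed as raw UMIs (unique molecular identifiers, 1 per captured transcript) in 5 classes of barcode from the stromal vascular fraction of epididymal white adipose tissue (eWAT). The tissue came from C57BL/6 mice (C57BL/6J in the study's methods), for which the labels name no engineered allele, fed for 24 wk from 6 wk of age. The LFD library came from mice on a low-fat diet and the HFD library from mice on a high-fat diet, as each library's own treatment label states. A protocol text shared by both libraries names a low-fat diet for both. Fat was dissociated enzymatically, mature adipocytes are not part of this fraction, and the number of mice behind a library is not stated. As each diet is a single library, the values have no replicate check and come without p-values, and diet and library cannot be told apart.

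Matrix metalloproteinases are zinc enzymes, made as inactive precursors, that cut collagens, elastin, proteoglycans and other proteins between cells. TIMPs bind the active site of many of these enzymes, and TIMP2 also helps the membrane-bound MMP14 to activate the MMP2 precursor at the cell surface. Cathepsin K, encoded by Ctsk, is a cysteine protease best known for collagen breakdown by osteoclasts and is not inhibited by TIMPs. In adipose tissue these enzymes are known for the matrix remodelling that goes with expansion of fat cells. RNA counts say nothing of whether the enzymes were active.

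Mmp3, Mmp12, Ctsk and Timp1 were the genes with the largest HFD-to-LFD ratios within a class, and the 250 bases before their RefSeq start sites are shown for that reason. RefSeq (GRCm38.p6) held such windows for 7 of the 9 genes. The letters TGANTCA, which read the same on both strands and are the usual form of a site for AP-1 factors, are in capitals. They occurred in 2 of the 8 windows of these genes, once each as TGAGTCA, against 6.75% of the 32851 windows of the same length in the table. The match is a description of letters and was not tested as a site.
Mmp3, chr9:7445572-7445821, plus strand: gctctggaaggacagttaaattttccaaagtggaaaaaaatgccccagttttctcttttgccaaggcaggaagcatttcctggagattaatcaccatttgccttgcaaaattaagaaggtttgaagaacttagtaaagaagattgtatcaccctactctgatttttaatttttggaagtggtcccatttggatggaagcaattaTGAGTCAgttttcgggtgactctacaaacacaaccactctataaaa
Mmp12, chr9:7347124-7347373, plus strand: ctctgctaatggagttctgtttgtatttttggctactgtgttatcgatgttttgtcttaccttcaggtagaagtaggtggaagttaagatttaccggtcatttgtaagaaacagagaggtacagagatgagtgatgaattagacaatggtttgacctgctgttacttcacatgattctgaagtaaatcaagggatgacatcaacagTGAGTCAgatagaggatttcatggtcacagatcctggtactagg
Ctsk, chr3:95498960-95499209, plus strand: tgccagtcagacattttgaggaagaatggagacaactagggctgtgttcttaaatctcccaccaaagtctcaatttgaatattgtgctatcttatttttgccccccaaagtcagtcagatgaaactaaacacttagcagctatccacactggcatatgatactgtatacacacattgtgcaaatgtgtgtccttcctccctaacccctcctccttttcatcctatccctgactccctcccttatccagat
Timp1, chrX:20869916-20870165, plus strand: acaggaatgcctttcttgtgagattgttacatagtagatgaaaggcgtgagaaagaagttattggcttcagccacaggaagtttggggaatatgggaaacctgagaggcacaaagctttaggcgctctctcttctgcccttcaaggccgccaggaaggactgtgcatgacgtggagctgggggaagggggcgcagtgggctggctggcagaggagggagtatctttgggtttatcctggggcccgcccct
The match began 46 bases before the Mmp3 start and 44 bases before the Mmp12 start. The Mmp12 window belongs to the second of its 2 RefSeq starts and lies inside the Mmp12 gene of GENCODE M21, outside its exons. The window at the first Mmp12 start, and those of Ctsk, Timp1, Mmp14, Timp2 and Timp3, held no match.

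Barcodes with at least 200 genes were classed by marker UMIs. Fibroblasts had at least 10 UMIs of Dcn, and those with at least 3 UMIs of Pi16, Dpp4 and Sema3c together were set apart as Pi16/Dpp4 fibroblasts from the Pi16-low fibroblasts. Endothelial barcodes had at least 3 UMIs of Cdh5 and Cldn5, mural barcodes at least 5 of Rgs5, Kcnj8, Abcc9 and Notch3, and macrophages at least 10 of C1qa, C1qb and C1qc. The LFD library gave 204 Pi16-low fibroblasts, 173 Pi16/Dpp4 fibroblasts, 98 endothelial, 5 mural and 230 macrophage barcodes of 1057. In the HFD library these were 207, 84, 115, 6 and 321 of 1117. Of the barcodes that met the macrophage rule, 18 of 238 on LFD and 20 of 337 on HFD lay below 2 times its minimum. The mural and endothelial rules had a larger share of barcodes near the limit, with 9 of 64 and 14 of 159 on LFD and 26 of 116 and 26 of 226 on HFD below 2 times the minimum. A further 13 LFD and 21 HFD barcodes fell short of the mural minimum with 3 or 4 UMIs. Of the barcodes that met more than 1 rule, 51 on LFD and 92 on HFD met the endothelial and mural rules together, with medians of 13270 and 9029 UMIs. They were kept as a group of their own, called endothelial and mural, a choice made after the data had been seen.

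Markers that no rule used were high in the fibroblasts, endothelial barcodes and macrophages they mark, and followed the names less well in the few mural barcodes. Col3a1 was at 2514 to 8816 CPM (counts per 1e6 UMIs of the class) in the fibroblast classes and at no more than 5.81 CPM in macrophages. Adgre1 stood at 441 and 442 CPM in macrophages and at 0 in fibroblast, endothelial and mural barcodes. Pecam1 was at 867 and 1024 CPM in endothelial barcodes. In mural barcodes Pdgfrb was at 861 and 857 CPM and Des at 287 and 321 CPM. Cspg4 was at 0 there on LFD and 107 CPM on HFD, and Mcam at 57.4 and 214 CPM against 66.9 and 96.8 CPM in endothelial barcodes. The fibroblast gene Col3a1 was at 1320 and 1178 CPM in them. LFD T barcodes carried the macrophage genes Csf1r and Cd68 at 90.6 and 71.5 CPM, which were at 0 in HFD T barcodes. Within the fibroblast rule, 25 of 173 LFD and 12 of 84 HFD Pi16/Dpp4 barcodes also carried at least 3 UMIs of the mesothelial genes Msln, Upk3b and Lrrn4. The libraries held 7356278 UMIs on LFD and 8412325 on HFD and shared 0 barcodes. Intervals in parentheses are exact 95% intervals, Poisson for CPM, Clopper-Pearson for shares and conditional binomial for ratios, and they cover counting error only. With 3′ counting a transcript gives 1 UMI whatever its length, so CPM of different genes were set side by side without a length correction.

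Proteases and inhibitors came largely from fibroblasts on LFD, and on HFD the macrophages held about as many protease UMIs as the fibroblasts, much of it in a few barcodes. On LFD the 2083 UMIs of the 6 proteases lay 74.4% in both fibroblast classes (72.4 to 76.2%) and 16.7% in macrophages (15.1 to 18.3%). On HFD there were 6361 protease UMIs, of which 44.6% (43.4 to 45.9%) lay in fibroblasts and 45.8% (44.5 to 47.0%) in macrophages. Without the top 5 barcodes of each gene the HFD shares were 59.2% in fibroblasts and 26.0% in macrophages, and without the top barcode 49.2% and 39.9%. TIMP UMIs numbered 15636 and 14528, and the share in fibroblasts was 69.8% (69.1 to 70.5%) on LFD and 50.6% (49.8 to 51.4%) on HFD. The leading fibroblast class on LFD was Pi16-low for proteases (48.0% against 26.4% in Pi16/Dpp4) and Pi16/Dpp4 for TIMPs (43.5% against 26.3% in Pi16-low). Macrophages held 11.7% and 21.9% of the TIMP UMIs. These shares move with the number of barcodes as well as with the level in each, and there were fewer Pi16/Dpp4 fibroblasts and more macrophages on HFD. Within the study's own limits, 200 to 2500 genes and less than 5% mitochondrial UMIs, the macrophage share of protease UMIs was 22.2% on LFD and 5.98% on HFD, the opposite order, and fibroblasts held 91.1% of HFD protease UMIs and 68.5 and 70.2% of LFD and HFD TIMP UMIs. Those limits kept 49 of 230 LFD and 73 of 321 HFD macrophages.

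**Figure D1:**
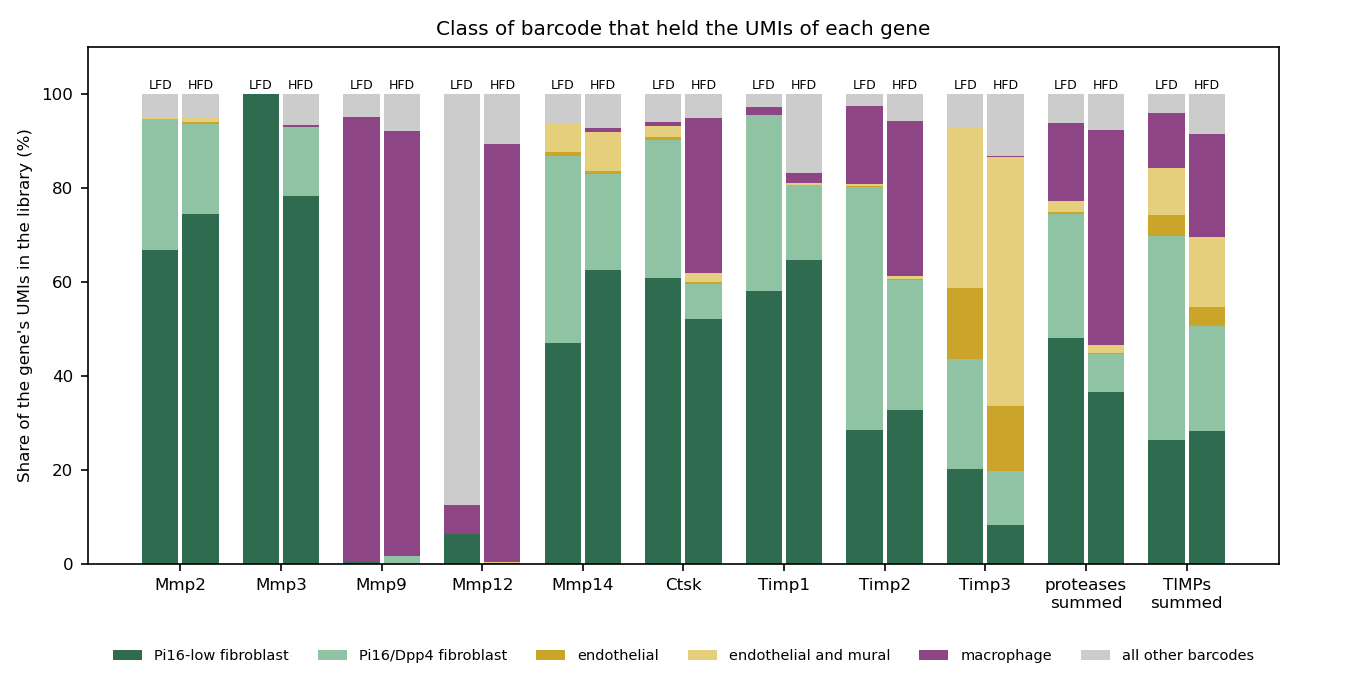
Stacked bars give, for each gene and for the sums of the 6 proteases and the 3 TIMPs, the percent of its UMIs in each class of barcode, LFD on the left and HFD on the right of each pair. Fibroblasts held most Mmp2, Mmp3, Mmp14, Ctsk, Timp1 and Timp2 UMIs in both libraries. Macrophages held 94.7 and 90.5% of Mmp9, and the purple macrophage share of all proteases was 16.7% on LFD and 45.8% on HFD.

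The 9 genes were then compared between each class and the rest of its library. A gene was counted when its CPM was at least 2-fold above the rest in both libraries and it had at least 50 UMIs in each, which left out Mmp3 and Mmp12, with 27 and 16 UMIs on LFD. Pi16-low fibroblasts had 4 such genes of 7 (Mmp2, Mmp14, Ctsk and Timp1), where 6.33% of all genes met the same rule. Pi16/Dpp4 fibroblasts had 2, Mmp14 and Timp2, against 7.13% of all genes. Timp3 was the 1 gene counted in endothelial barcodes (background 8.29%) and in mural barcodes (5.48%), and Mmp9 the 1 in macrophages (7.11%). Outside macrophages Mmp9 had 19 LFD and 6 HFD UMIs, and outside Pi16-low fibroblasts Timp1 had 47 on LFD. Both reached the minimum only through the class in which they were counted, so nothing is read from their place in these counts. Mmp9 was 70.2-fold above the rest on LFD and 17.7-fold on HFD. Without its top 5 barcodes in each library it was still 59.4-fold and 11.03-fold above, but the 41 UMIs left on HFD were under the minimum of 50 and it was not counted. Timp3 in the 5 LFD mural barcodes went from 2.98-fold to 1.55-fold above the rest without its top barcode, under the 2-fold line.

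Mmp2 (ENSMUSG00000031740, GRCm38 chromosome 8, 92827291 to 92853420, plus strand) encodes gelatinase A, which cuts denatured collagen and type IV collagen. Its level in Pi16-low fibroblasts was 278 CPM on LFD (252 to 306) and 459 CPM on HFD (426 to 494), a ratio of 1.65 (1.46 to 1.87). Among Pi16/Dpp4 fibroblasts it was 103 CPM (88.2 to 120) and 231 CPM (199 to 266), a ratio of 2.24 (1.81 to 2.77). Both fibroblast classes were thus higher in the HFD library, and Pi16-low stood above Pi16/Dpp4 fibroblasts by 2.70-fold on LFD and 1.99-fold on HFD. The Pi16/Dpp4 ratio went under 2 in 3 of 13 alternatives, among them 1.43 within the study's limits. Within those limits the Pi16-low ratio moved the other way, to 2.02 (1.51 to 2.75), past the 2-fold line. Macrophages held 1 UMI of Mmp2 in each library, and endothelial barcodes 0 on LFD and 4 on HFD.

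Mmp14 (ENSMUSG00000000957, chromosome 14, 54431612 to 54445364, plus strand) encodes the membrane-bound metalloproteinase that activates the MMP2 precursor. Pi16-low fibroblasts had 199 CPM on LFD (177 to 223) and 320 CPM on HFD (293 to 349), a ratio of 1.61 (1.39 to 1.86). Pi16/Dpp4 fibroblasts had 150 CPM (132 to 170) and 204 CPM (174 to 237), a ratio of 1.36 (1.11 to 1.66). The 2-fold line was not reached in either class or under any of the 13 alternatives. The endothelial and mural barcodes carried 51.7 CPM on LFD (36.7 to 70.6) and 71.2 CPM on HFD (55.2 to 90.5), and macrophages 0 and 8 UMIs. Mmp14, Mmp2 and Timp2, the 3 parts of the activating complex, were all seen in 112 of 204 LFD and 147 of 207 HFD Pi16-low fibroblasts. Among Pi16/Dpp4 fibroblasts all 3 were seen in 68 of 173 and 47 of 84 barcodes.

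Mmp3 (ENSMUSG00000043613, chromosome 9, 7445822 to 7455975, plus strand), stromelysin 1, cuts proteoglycans and other matrix proteins and can activate other metalloproteinases. It was the scarcest fibroblast protease, with 27 UMIs in 4 of 204 Pi16-low fibroblasts on LFD and 177 UMIs in 29 of 207 on HFD. The levels were 18.1 CPM (11.9 to 26.4) and 111 CPM (94.98 to 128), a ratio of 6.11 (4.06 to 9.53). A single barcode held 13 of the 27 LFD UMIs, and without the top barcode of each library the ratio was 10.6. The Pi16/Dpp4 class held 0 UMIs in 173 barcodes on LFD and 33 UMIs in 4 of 84 barcodes on HFD, of which 23 lay in a single barcode. Against the 3 UMIs that a count of 0 allows over that LFD class, this was at least 22.3-fold higher, on 33 UMIs in all, and the exact interval of the ratio, which also takes in the counting error of the HFD value, began at 17.15. No more than 1 UMI of Mmp3 was seen in any other main class of either library.

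Ctsk (ENSMUSG00000028111, chromosome 3, 95499256 to 95509362, plus strand) was a fibroblast gene on LFD and a fibroblast and macrophage gene on HFD. Pi16-low fibroblasts had 174.5 CPM on LFD (154 to 197) and 558 CPM on HFD (522 to 596), a ratio of 3.20 (2.78 to 3.69). In Pi16/Dpp4 fibroblasts the levels were 75.5 CPM (62.9 to 89.8) and 154 CPM (129 to 184), a ratio of 2.05 (1.59 to 2.64). Macrophages had 3 UMIs in 230 barcodes on LFD and 566 UMIs in 44 of 321 barcodes on HFD, 2.02 and 193 CPM, with a ratio of 95.8 (32.6 to 466). A single HFD barcode held 20.7% of these UMIs and the top 5 held 59.2%, and by the mean of the CPM of single barcodes the HFD level was 101.1 CPM and the ratio 61.8. Counting barcodes that met more than 1 rule in each of their classes made this ratio 15.99. The share of all Ctsk UMIs that lay in macrophages was 0.701% on LFD and 33.1% on HFD. Within the study's limits the ratio was 1.98 in Pi16-low and 1.17 in Pi16/Dpp4 fibroblasts, both under 2-fold, and the macrophages kept 0 and 7 UMIs. The Pi16/Dpp4 ratio went under 2 in 3 further alternatives.

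Mmp9 (ENSMUSG00000017737, chromosome 2, 164940780 to 164955850, plus strand) encodes gelatinase B, a product of myeloid cells. It was a macrophage gene and, over all barcodes of a library, the only protease of the 6 that was lower on HFD (49.6 against 7.51 CPM). Macrophages had 342 UMIs on LFD, 230 CPM (206 to 256), and 57 UMIs on HFD, 19.5 CPM (14.8 to 25.2). The HFD-to-LFD ratio was 0.0846 (0.0628 to 0.112), or 11.8-fold lower, and it lay between 0.0622 and 0.164 over all 13 alternatives. At least 1 UMI was seen in 52.2% of LFD macrophages (120 of 230) and 9.35% of HFD macrophages (30 of 321). After thinning each barcode to 1000 UMIs, with 5 and 1 shallower barcodes left out, these shares were 17.3% and 2.19%. Macrophage medians were 6328 and 6915 UMIs. In classes that should lack this RNA, 0 of 207 Pi16-low fibroblasts on HFD had a UMI (median 7546 UMIs). The exact interval of that share reached 1.77%, against 6.40 to 13.1% for the interval of the HFD macrophages. Of the 84 Pi16/Dpp4 fibroblasts on HFD 1 had a UMI, and of the 115 endothelial barcodes 0 did. T barcodes stood higher, with a UMI in 7 of 59 on LFD and 4 of 17 on HFD (23.5%, 6.81 to 49.9%), at medians of 2598 and 1711 UMIs. On HFD the level in T barcodes, 136 CPM (44.1 to 317) on 5 UMIs, was above that in macrophages.

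Mmp12 (ENSMUSG00000049723, chromosome 9, 7344381 to 7369499, plus strand), macrophage elastase, was almost absent from the LFD library and, over all HFD macrophages, was the most abundant protease of the 6. There was 1 UMI in 230 LFD macrophages and there were 2278 UMIs in 59 of 321 HFD macrophages. The level on HFD was 778 CPM (747 to 811) against 0.673 CPM (0.0170 to 3.75) on LFD, a ratio of 1157 with an interval from 207 to 45713, since it rests on 1 LFD count. With halved marker minimums the ratio was 292. A UMI was seen in 18.4% of HFD macrophages (14.3 to 23.1%), or 10.3% after thinning. In HFD classes that should lack this RNA it was seen in 5 of 207 Pi16-low fibroblasts, 0 of 84 Pi16/Dpp4 fibroblasts and 1 of 115 endothelial barcodes, never with more than 1 UMI, and in 0 of 17 T barcodes. The RNA was unevenly spread, as a single barcode held 581 UMIs (25.5%) and the top 5 held 65.8%. The mean of the CPM of single HFD macrophages was accordingly lower, 279, and the ratio by such means was 588. On LFD the whole library held 16 UMIs, of which 11 lay in 1 T barcode. Macrophages with Mmp12 were deep, with a median of 11886 UMIs against 6494 in those without, and 40 of the 59 had over 2500 genes. Within the study's limits 13 UMIs remained, 30.8 CPM (16.4 to 52.7), against 0 UMIs on LFD, where the exact interval reached 13.5 CPM. Mmp9 stood above it in those HFD macrophages, with 18 UMIs and 42.6 CPM (25.3 to 67.4), though their intervals overlap.

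**Figure D2:**
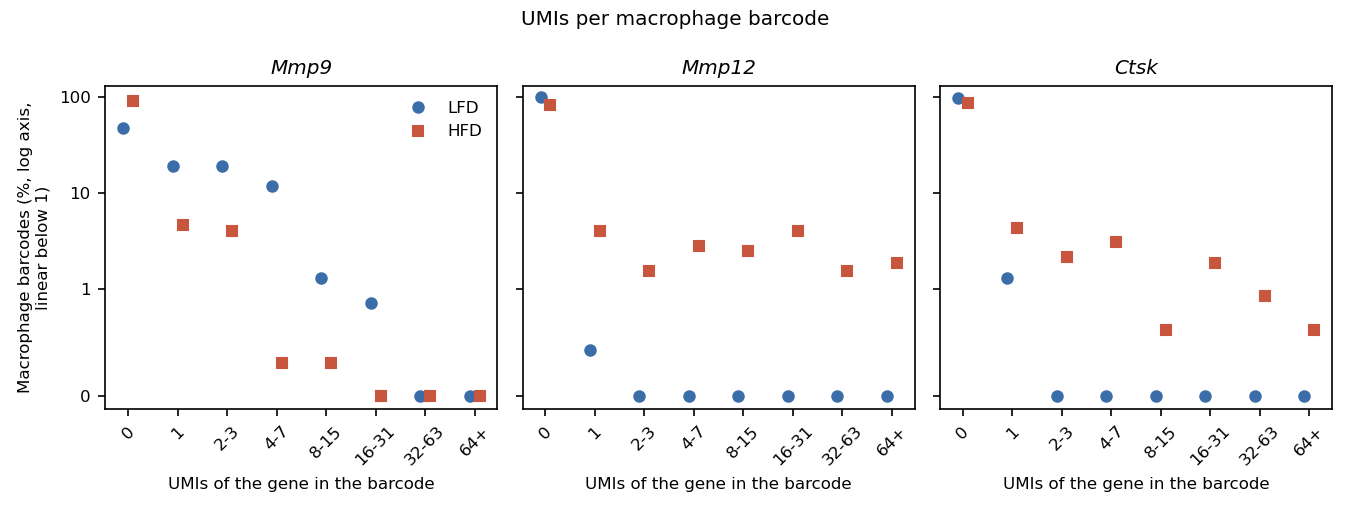
Points give the percent of macrophage barcodes (log axis, linear below 1%) with the number of UMIs of Mmp9, Mmp12 or Ctsk on the horizontal axis, for 230 LFD (circles) and 321 HFD (squares) barcodes. Mmp9 counts reached 18 on LFD and 9 on HFD, whereas Mmp12 and Ctsk reached 581 and 117 UMIs in single HFD barcodes and no more than 1 UMI in LFD macrophages.

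Timp1 (ENSMUSG00000001131, chromosome X, 20870166 to 20874735, plus strand) encodes a secreted inhibitor of metalloproteinases. It was the inhibitor that differed most between the diets, and it came from fibroblasts. In Pi16-low fibroblasts it stood at 43.6 CPM on LFD (33.7 to 55.6) and 407 CPM on HFD (376 to 439), a ratio of 9.32 (7.21 to 12.2). In Pi16/Dpp4 fibroblasts the levels were 25.2 CPM (18.1 to 34.0) and 194 CPM (165 to 227), a ratio of 7.73 (5.47 to 11.1). At least 1 UMI was seen in 17.6% of LFD (36 of 204) and 56.0% of HFD (116 of 207) Pi16-low fibroblasts, at median depths of 7888 and 7546 UMIs, and in 0 of 59 and 0 of 17 T barcodes. Thinned to 1000 UMIs the shares were 2.51% and 19.0%. A single HFD barcode held 107 of the 650 UMIs, and without the top 5 barcodes of each library the ratio was 7.77. By the mean of the CPM of single barcodes it was 5.26. The ratio stayed above 2-fold within the study's limits, at 2.26 in Pi16-low fibroblasts, well below the value over all barcodes, and at 4.29 in Pi16/Dpp4 fibroblasts, on 2 and 7 UMIs. Outside the 5 classes, 166 of 1005 HFD Timp1 UMIs lay in the 28 barcodes that met other combinations of rules, 113 of them in a single barcode. Macrophages had 2 and 22 UMIs and endothelial barcodes 0 in both libraries.

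Timp2 (ENSMUSG00000017466, chromosome 11, 118301069 to 118355740, minus strand), which inhibits MMP2 and takes part in its activation, was the most abundant of the 9 genes in fibroblasts and, on LFD and HFD, in macrophages. The Pi16/Dpp4 fibroblasts had it at 3416 CPM on LFD (3328 to 3506) and 3196 CPM on HFD (3075 to 3320), a ratio of 0.936 (0.893 to 0.980). Pi16-low fibroblasts had 2107 CPM (2034 to 2182) and 1954 CPM (1886 to 2023), a ratio of 0.927 (0.882 to 0.975). Macrophages had 1232 CPM (1176 to 1290) and 1078 CPM (1041 to 1116), a ratio of 0.875 (0.826 to 0.927). In each class the HFD value was lower by less than the 2-fold line, and no alternative reached it. Nearly every barcode of these classes carried Timp2, from 95.02% of HFD macrophages to all 173 and 84 Pi16/Dpp4 fibroblasts, against 7 of 59 LFD and 0 of 17 HFD T barcodes. Pi16/Dpp4 fibroblasts exceeded Pi16-low fibroblasts by 1.62-fold on LFD and 1.64-fold on HFD. The 25 LFD and 12 HFD barcodes with mesothelial genes gave 1407 of 5704 and 754 of 2631 of the Timp2 UMIs of the Pi16/Dpp4 class. Endothelial barcodes were low, at 39.8 and 52.3 CPM.

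Timp3 (ENSMUSG00000020044, chromosome 10, 86300372 to 86349506, plus strand) encodes the inhibitor that stays bound to the matrix and also inhibits several ADAM and ADAMTS enzymes. Among the 3 inhibitors it was the most abundant in endothelial barcodes. Its level there was 1234 CPM on LFD (1143 to 1330) and 1080 CPM on HFD (993 to 1174), a ratio of 0.876 (0.782 to 0.981). With mixed barcodes counted in each class that ratio was 1.09. The endothelial and mural barcodes had 2028 CPM (1928 to 2133) and 2247 CPM (2153 to 2345), a ratio of 1.11 (1.04 to 1.18). The 5 and 6 mural barcodes had 1837 CPM (1256 to 2593) and 3000 CPM (1993 to 4336), and their intervals overlap. Pi16-low fibroblasts had 607 CPM on LFD (568 to 648) and 205 CPM on HFD (184 to 229), a ratio of 0.338 (0.297 to 0.384). In Pi16/Dpp4 fibroblasts the levels were 634 CPM (596 to 673) and 558 CPM (508 to 611), a ratio of 0.880 (0.787 to 0.983). The fibroblast classes were thus alike on LFD, at a Pi16-low over Pi16/Dpp4 ratio of 0.959 (0.876 to 1.05), and apart on HFD, at 0.368 (0.318 to 0.425). Without the barcodes that carried mesothelial genes the Pi16/Dpp4 ratio between diets was 0.667. Within the study's limits the Pi16-low ratio was 0.580, short of the 2-fold line. Of all Timp3 UMIs, fibroblasts held 43.6% on LFD and 19.7% on HFD, and the endothelial and mural barcodes 34.0% and 52.9%. Macrophages held 2 and 6 UMIs.

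**Figure D3:**
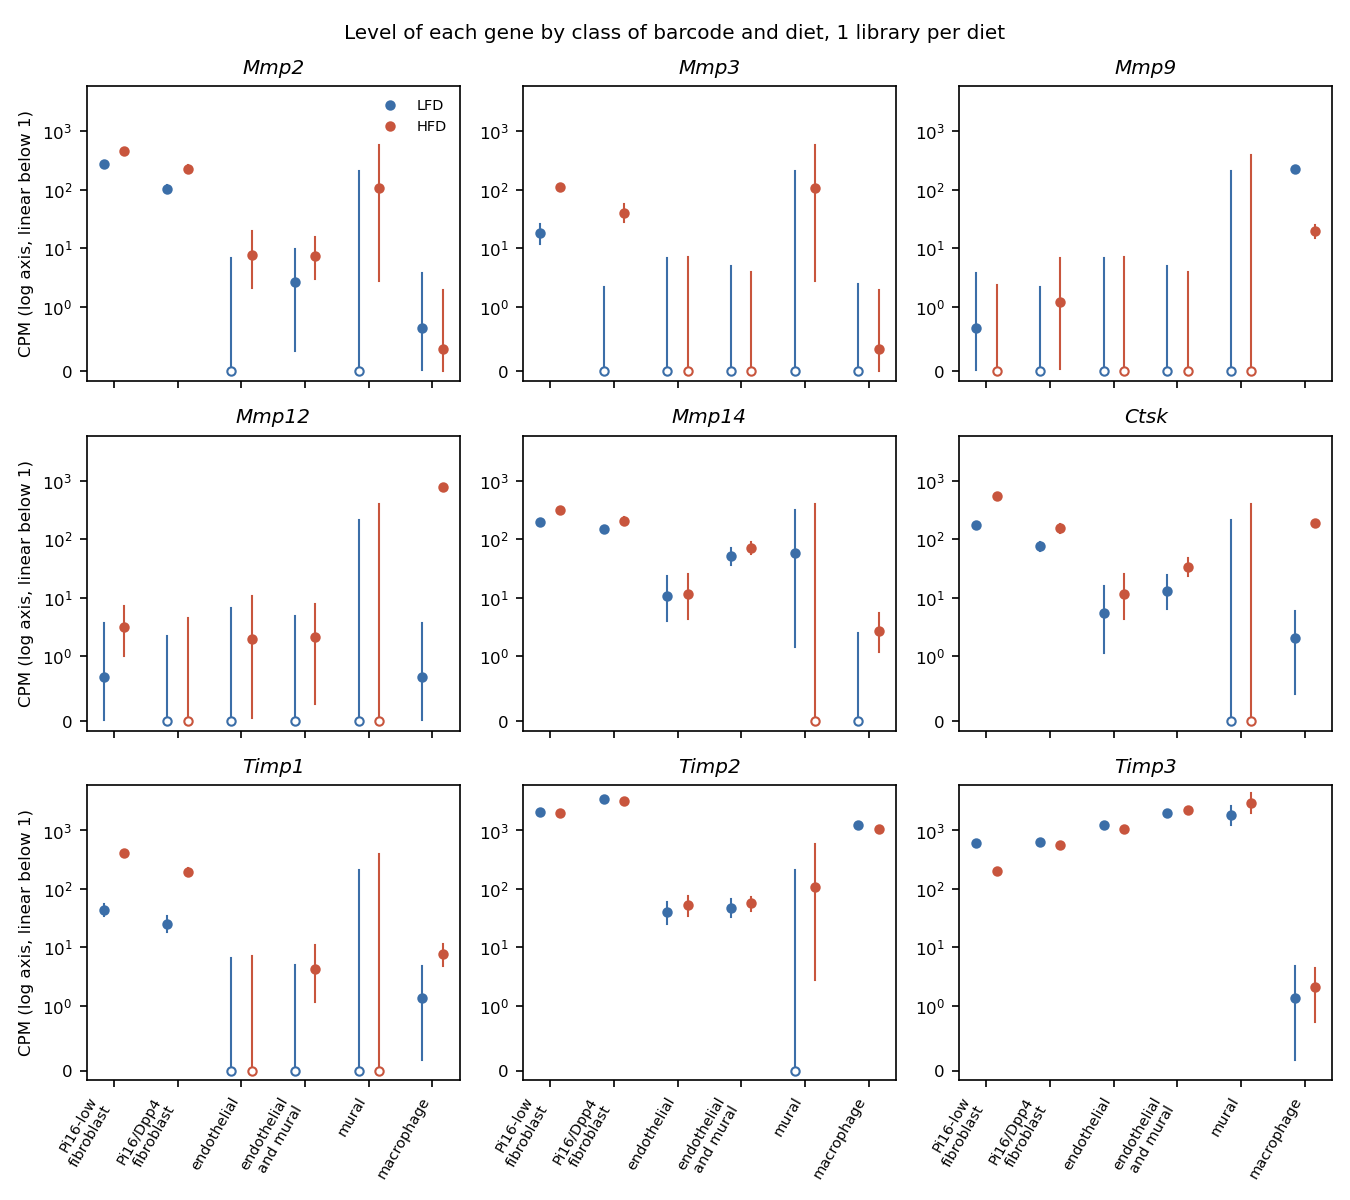
Each panel gives the CPM of 1 gene (log axis, linear below 1) in 6 groups of barcodes, LFD in blue and HFD in red, with exact Poisson 95% intervals as vertical lines and open circles at 0. Timp2 lies between 1078 and 3416 CPM in fibroblasts and macrophages of both libraries, Timp3 is highest in the endothelial and mural groups, and Mmp12 stands at 778 CPM in HFD macrophages and at no more than 3.13 CPM in every other group.

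The diets were compared within a class over all genes with at least 50 UMIs in both libraries together, and a gene was counted as different from 2-fold upwards. In Pi16-low fibroblasts 3 of the 7 genes that passed this minimum were higher on HFD (Mmp3, Ctsk and Timp1), where 1.5% of all genes were. The 1 lower gene was Timp3, against 2.04% of all genes. In Pi16/Dpp4 fibroblasts 3 of 6 were higher (Mmp2, Ctsk and Timp1; background 1.02%) and 0 were lower (1.74%). Endothelial barcodes had 1 gene above the minimum, Timp3, which was in neither count (0.736% of all genes higher, 1.5% lower). Macrophages had 2 of 4 higher, Mmp12 and Ctsk (background 5.36%), and 1 lower, Mmp9 (5.9%). The median log2 ratio of all genes was between -0.014 and 0.00998 in these classes. Mmp3 in Pi16-low fibroblasts, Timp1 in Pi16/Dpp4 fibroblasts, and Mmp12 and Ctsk in macrophages reached the minimum only through their HFD UMIs, so their place in these counts follows from where they were high and nothing is read from it. Within the study's limits the counts were 0 in macrophages and Pi16/Dpp4 fibroblasts for higher genes and 0 in Pi16-low fibroblasts for lower genes. Part of this was the minimum of 50 UMIs, which Mmp12 (0 and 13 UMIs) and Ctsk (0 and 7) in macrophages and Timp1 (2 and 7) in Pi16/Dpp4 fibroblasts no longer reached.

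**Figure D4:**
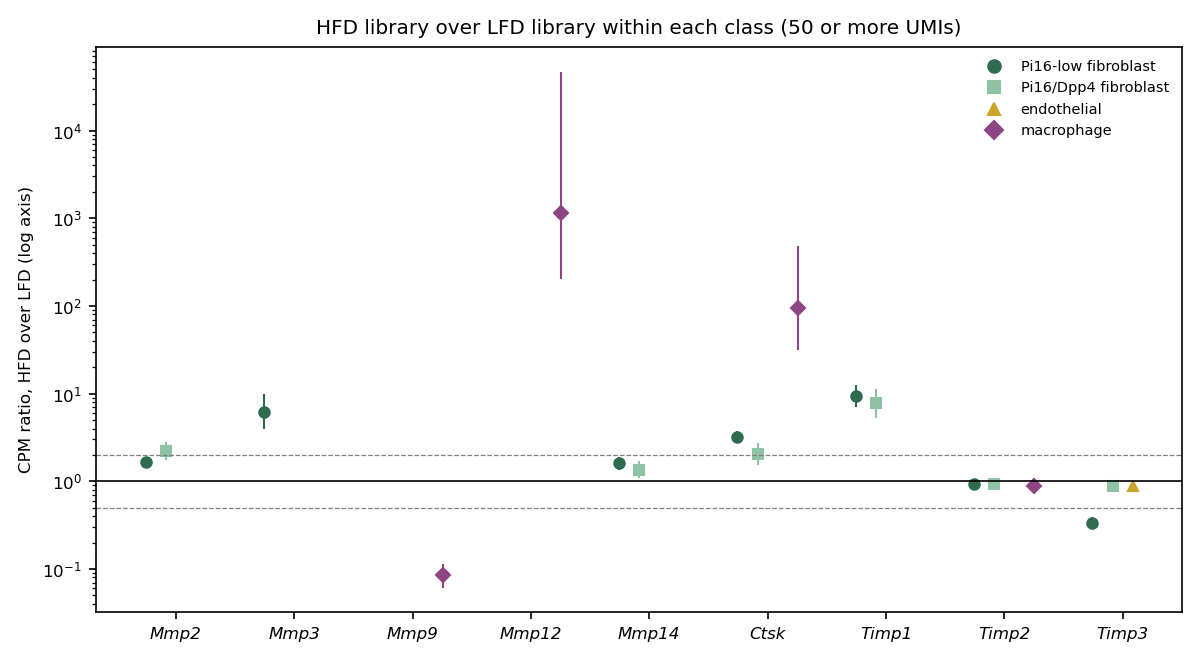
Points give the CPM ratio of the HFD over the LFD library (log axis) for each gene with at least 50 UMIs in the class and at least 1 LFD UMI, with exact 95% intervals, and dashed lines mark 2-fold. Mmp12 and Ctsk in macrophages lie highest, at 1157 and 95.8, Mmp9 in macrophages lowest, at 0.0846, and Timp2 lies between 0.875 and 0.936 in each of 3 classes.

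Fewer inhibitor UMIs stood beside each protease UMI on HFD than on LFD. In Pi16-low fibroblasts the 6 proteases summed to 671 CPM on LFD and 1451 CPM on HFD, and the 3 TIMPs to 2758 and 2565 CPM. TIMP UMIs per protease UMI were 4.11 (3.83 to 4.41) and 1.77 (1.68 to 1.86). Pi16/Dpp4 fibroblasts gave 12.4 (11.4 to 13.5) and 6.26 (5.71 to 6.88). The same count in endothelial barcodes was 78.2 (41.0 to 172) and 34.4 (21.3 to 59.5), on only 9 and 17 protease UMIs, so its intervals overlap. For the endothelial and mural barcodes it was 30.7 (23.3 to 41.5) and 20.1 (16.6 to 24.6), which overlap as well. Macrophages gave 5.29 (4.71 to 5.95) and 1.09 (1.04 to 1.15), but this rests on few barcodes, as without the top 5 barcodes of each gene it was 6.01 and 2.74. Within the study's limits the macrophage values were 4.66 and 7.26, in the opposite order. Over all barcodes of a library the value was 7.51 (7.17 to 7.86) on LFD and 2.28 (2.22 to 2.35) on HFD. Cathepsin K is counted here among the proteases although TIMPs do not inhibit it, and a UMI ratio is not a ratio of proteins. The sums take no account of which TIMP inhibits which protease. Timp4, the remaining TIMP, is not in them, and endothelial barcodes held 451 LFD and 223 HFD UMIs of it.

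**Figure D5:**
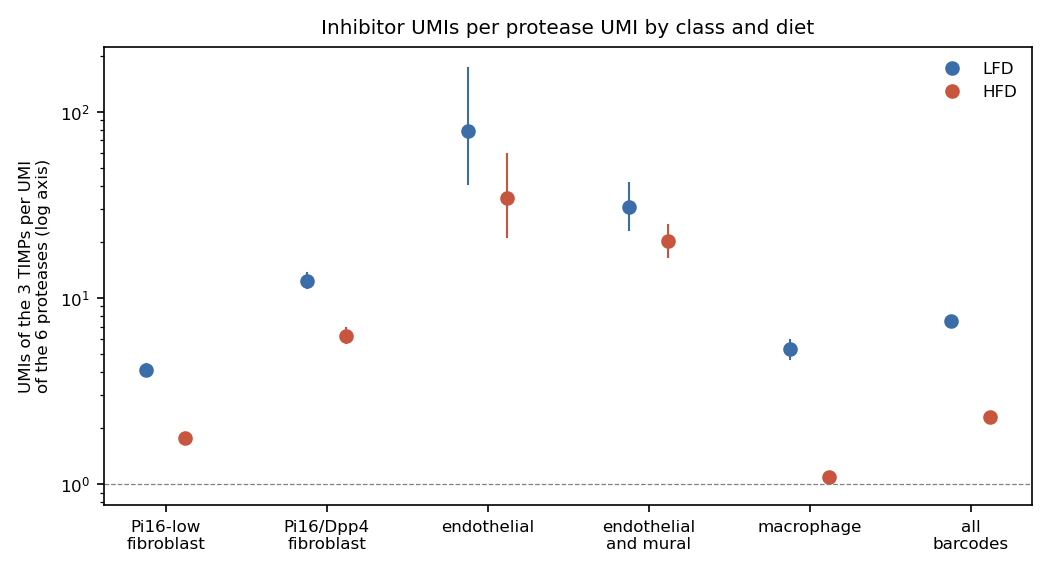
Points give UMIs of Timp1, Timp2 and Timp3 together per UMI of the 6 proteases (log axis) by group of barcodes, LFD in blue and HFD in red, with exact 95% intervals. The HFD point lies below the LFD point in every group, with intervals that overlap in the endothelial group and in the endothelial and mural group, and macrophages on HFD are close to the dashed line of 1, at 1.09.

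The makeup of each pool differed by class. In Pi16-low fibroblasts Mmp2 gave 41.4% of protease UMIs on LFD and 31.6% on HFD, Mmp14 29.7% and 22.1%, and Ctsk 26.0% and 38.5%. Mmp9 gave 98.6% of the macrophage pool on LFD and 1.96% on HFD, where Mmp12 gave 78.3% and Ctsk 19.4%. Among inhibitors, Timp2 gave 76.4 and 76.2% of TIMP UMIs in Pi16-low fibroblasts on LFD and HFD, while Timp1 gave 1.58 and 15.9% and Timp3 22.0 and 7.996%. Timp2 gave over 99% of the macrophage pool in both libraries, 99.8 and 99.1%, and Timp3 96.9 and 95.4% of the endothelial pool. These pools hold Timp1, Timp2 and Timp3 only. Endothelial barcodes also held 451 LFD and 223 HFD UMIs of Timp4, beside 682 and 558 of Timp3.

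Macrophages were divided by Cd9, Trem2 and Gpnmb, genes of lipid-laden macrophages, at 5 UMIs in sum. On LFD 6 of 230 and on HFD 128 of 321 macrophages reached that sum, with HFD medians of 9146 UMIs above and 6084 below it. Mmp12 and Ctsk lay nearly wholly above the line, with 2225 of 2278 and 554 of 566 HFD UMIs there. In that part the levels on HFD were 1308 CPM (1254 to 1363) for Mmp12 and 326 CPM (299 to 354) for Ctsk, against 43.3 CPM (32.4 to 56.6) and 9.79 CPM (5.06 to 17.1) below it. The 6 LFD macrophages above the line held 0 UMIs of either gene, with an exact interval up to 68.4 CPM. Mmp9 on HFD was mostly on the other side, with 5 UMIs above and 52 below the line, whereas 5 of the 6 LFD macrophages above the line carried it, on 8 UMIs. Among macrophages below the line it was 233 CPM on LFD (209 to 260) and 42.4 CPM on HFD (31.7 to 55.7), a ratio of 0.182 (0.133 to 0.244). Above the line it was 148 CPM on LFD (64.01 to 292) and 2.94 CPM on HFD (0.954 to 6.86), a ratio of 0.0198 (0.00510 to 0.0687). Mmp9 was thus lower on HFD on both sides of the line.

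A second division used Timd4, Ccl24 and Lyve1, genes of resident macrophages, at 3 UMIs in sum, which 191 of 230 LFD and 108 of 321 HFD macrophages reached. Above that sum Mmp9 was 218 CPM on LFD (193 to 245) and 53.6 CPM on HFD (38.6 to 72.4), and below it 305.5 CPM (235 to 390) and 7.001 CPM (3.92 to 11.6). Timp2 was higher in the macrophages with these genes, 1325 CPM on LFD and 1801 CPM on HFD, against 664 and 814 CPM in those below. In each of these parts Timp2 was higher on HFD, with ratios of 1.36 (1.27 to 1.46) and 1.23 (1.03 to 1.47), whereas over all macrophages its ratio was 0.875. In the parts divided by Cd9, Trem2 and Gpnmb it was lower on HFD in both, with ratios of 0.682 (0.547 to 0.860) above that line and 0.917 (0.854 to 0.985) below it. The share of macrophages with resident genes was 83.0% on LFD and 33.6% on HFD.

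Within single barcodes, Ctsk was seen in 27 of the 59 HFD macrophages with Mmp12 (45.8%, 32.7 to 59.3%) and in 17 of the 262 without it (6.49%, 3.83 to 10.2%). The barcodes with Mmp12 were deeper, and the part of depth in this difference was not tested. Mmp9 was seen in 4 of the 59 and in 26 of the 262. In HFD Pi16-low fibroblasts, Timp1 was seen in 18 of 29 barcodes with Mmp3 (62.1%, 42.3 to 79.3%) and in 98 of 178 without (55.1%, 47.4 to 62.5%), which overlap.

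Other matrix proteases and their inhibitors, receptors and helpers were followed as a list of 56 genes, 42 of them proteases. In Pi16-low fibroblasts 37 of the 56 had at least 50 UMIs, 3 were at least 2-fold higher on HFD and 0 lower, where 1.5% of all genes were higher and 2.04% lower, and the median log2 ratio was 0.21. The higher genes were Mmp11, at 36.9 and 93.8 CPM and a ratio of 2.54 (1.85 to 3.53), Adamts9, at 10.7 and 46.3 CPM and a ratio of 4.31 (2.49 to 7.93), and Pcolce. Pcolce, which enhances the processing of procollagen by BMP1, stood at 313 and 740.4 CPM, a ratio of 2.37 (2.13 to 2.64). Adamts9 reached the minimum in this class only through its HFD UMIs (16 and 74), so nothing is read from its place in the count. The most abundant genes of the list there were Cst3, Serping1 and Ctsl, with ratios of 1.11, 1.11 and 1.28. Cst3 encodes cystatin C, an inhibitor of cysteine cathepsins.

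In Pi16/Dpp4 fibroblasts 35 of the 56 passed the minimum, 3 were higher and 1 was lower (1.02% and 1.74% of all genes), with a median log2 ratio of 0.27. Adamts15 had a ratio of 3.55 (1.99 to 6.49) and Adamts12 of 2.50 (1.44 to 4.36). Reck, a membrane-anchored inhibitor of metalloproteinases, went from 41.3 to 20.6 CPM between LFD and HFD, a ratio of 0.4998 (0.276 to 0.859). Adamts15 (20 and 35 UMIs) and Adamts12 (26 and 32) passed the minimum only with both libraries summed, and Reck (69 and 17) only through LFD. Nothing is read from the place of these genes in the counts. Serping1, Adamts5 and Cst3 had the most UMIs of the list, with ratios of 0.861, 0.700 and 1.04. Adamts5, an aggrecanase, was the most abundant protease of the list in this class on LFD, at 1349 CPM against 1092 CPM for Ctsl, named after its value had been seen, whereas on HFD Ctsl was higher, at 1318 against 944 CPM. Endothelial barcodes had 12 of the 56 above the minimum, 0 past 2-fold in either direction (0.736% of all genes higher, 1.5% lower) and a median log2 ratio of 0.13. Cst3, Adamts1 and Ctsl had the most UMIs there over both libraries, with ratios of 0.722, 1.05 and 1.28. Timp4, the remaining TIMP, named after its value had been seen, was at 816 CPM on LFD, second to Cst3, and at 432 CPM on HFD, a ratio of 0.529 (0.449 to 0.623).

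Macrophages had 19 of the 56 above the minimum, 6 higher and 1 lower on HFD (5.36% and 5.9% of all genes), with a median log2 ratio of 0.52. Adam8 was at 12.1 CPM on LFD and 157 CPM on HFD, a ratio of 13.0 (8.10 to 22.1), and Mmp19 at 8.75 and 73.8 CPM, a ratio of 8.44 (4.83 to 16.1). The lysosomal proteases Ctsl and Ctsd were at 424 and 1962 CPM and at 819 and 2605 CPM, ratios of 4.63 (4.26 to 5.03) and 3.18 (2.99 to 3.38). Plaur, the urokinase receptor, had a ratio of 3.64 (2.55 to 5.35). Cst3 was the most abundant gene of the list on LFD and Ctsb on HFD. Cst3 was at 4859 and 3305 CPM, a ratio of 0.680 (0.660 to 0.701), and Ctsb at 2551 and 3727 CPM. The lower gene was Serpinf1 (0.305), named after its value had been seen. It reached the minimum only through its LFD UMIs (65 and 39). Adam8, Mmp19 and Plaur had 18, 13 and 35 LFD UMIs and reached it only through HFD, as did the higher gene not reported here. The place of these genes in the counts follows from where they were high, and nothing is read from it.

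The gene most like each of the 9 across the 10 profiles of class and library was sought by Pearson correlation of log2 (CPM + 10), among 10517 genes. These values are descriptions over 10 points that share libraries, and carry no test. Mmp2 was closest to Lhfp (0.983), Mmp14 to Ccdc80 (0.991) and Timp1 to Prrx2 (0.974). Ctsk was closest to another protease, Mmp19 (0.960). Mmp12 was closest to Cdk18 (0.998), Rnf128 (0.997) and Dppa3 (0.997), and Mmp9 to BC035044 (0.999), Pilrb1 (0.999) and Kmo (0.999). Among these profiles Mmp12 was above 3.13 CPM only in HFD macrophages, and Mmp9 above 1.22 CPM only in macrophages. Their correlations rest on those profiles. Timp3 was closest to Mast4 (0.983) and Hoxa7 (0.983), Timp2 to Rpl34 (0.967) and Mmp3 to Erp44 (0.931).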

How the data were processed

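Single-cell RNA was measured in 1 LFD and 1 HFD library from eWAT stromal cells, prepared with the 10x Chromium 3′ v3 kit. The authors deposited raw UMI counts, 1 table of genes by barcodes per library, from Cell Ranger (3.0.2 in the header of the count tables, a later release in the methods) on mm10. Barcodes that the study's later limits on genes and mitochondrial RNA would remove are still in them.

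Of 1113 LFD and 1144 HFD barcodes, 56 and 27 with fewer than 200 genes were left out. Classes followed the marker minimums given above. Barcodes meeting no main rule were classed by smaller marker sets or left unassigned (163 and 175), and T barcodes had at least 2 UMIs of Cd3d, Cd3e and Cd3g. UMIs were summed per class and library and divided by all UMIs of the class. Counts model no spread between animals, so no count test was run. Doublets were kept, and Scrublet, at an expected rate of 1%, marked 20 LFD and 26 HFD barcodes for an alternative. The code for ratios and 2-fold counts was checked on simulated counts. The genes, lists and classes were chosen with earlier results of these data known. Named genes were the 9 genes in every class, and from the list of 56, per class, the 3 with most UMIs and up to 4 furthest past 2-fold with at least 50 UMIs, and the 3 most correlated genes per gene. One gene of the list is counted but not reported here. The alternatives were other barcode limits, marker minimums halved, doubled or scaled to 5000 UMIs, mixed barcodes counted in each class, doublets out, other totals, scaling and UMI minimums, means over barcodes, and top barcodes left out. Leaving out mesothelial barcodes or the top 5 barcodes was chosen after seeing the data. Gene positions came from GENCODE M21 (GRCm38) and windows before start sites from RefSeq. Python 3.11.15 was used with numpy 2.4.6, scipy 1.17.1, scanpy 1.11.5 and matplotlib 3.10.9.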

Additional observations from a re-analysis of the deposited data

Results flagged for a closer look

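One signal lay in barcodes outside every class, which entered the comparisons only within the rest or the sum of a library. Mmp12 stood at 282.3 CPM (243 to 326) in the 175 HFD barcodes that met no class rule, against 0 UMIs in 163 such LFD barcodes. The 186 UMIs lay in 16 barcodes, 156 of them in a single barcode. Of the 16, 6 had at least 1 C1q UMI and 5 reached 5 UMIs of Cd9, Trem2 and Gpnmb together.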

How the results depend on the processing

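No paired analysis was possible because each diet had 1 library. With 1 library per diet, no setting adds replicates, and the low counts of Mmp3 and of Mmp12 on LFD limit the precision of their ratios. No ratio past 2-fold turned its sign between settings. Of the ratios within 2-fold, 2 went from under to over 1, Timp3 in endothelial barcodes (0.876, or 1.09 with mixed barcodes in each class) and Timp2 in Pi16/Dpp4 fibroblasts (0.936, or 1.004 with markers scaled to 5000 UMIs). The order of the diets in protease shares and TIMP UMIs per protease UMI turned in macrophages within the study's limits, and so did that in the fibroblast shares. The causes of these changes were not tested.

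Within those limits, 200 to 2500 genes and less than 5% mitochondrial UMIs, genes higher on HFD numbered 0 in macrophages and 0 in Pi16/Dpp4 fibroblasts, and genes lower on HFD 0 in Pi16-low fibroblasts. Genes above the rest of the library numbered 4 in Pi16/Dpp4 fibroblasts and 0 in macrophages, where Mmp9 was still 46.9-fold and 54.4-fold above the rest but had 19 HFD UMIs, under the minimum. TIMP UMIs per protease UMI were 1.99 in Pi16-low fibroblasts on HFD, 7.74 and 4.92 in Pi16/Dpp4 fibroblasts on LFD and HFD, and 4.66 and 7.26 in macrophages. Fibroblast shares were 68.5 and 70.2% of TIMP UMIs and, on HFD, 91.1% of protease UMIs, and macrophage shares of protease UMIs were 22.2 and 5.98%.

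With markers scaled to 5000 UMIs, TIMP UMIs per protease UMI were 4.74 (Pi16-low fibroblasts, LFD), 9.23 (Pi16/Dpp4, HFD) and 1.44 (macrophages, HFD). Genes higher on HFD numbered 1 in Pi16/Dpp4 fibroblasts and 1 in endothelial barcodes. On HFD, fibroblasts held 52.0% of TIMP and 46.2% of protease UMIs, and macrophages 34.2% of protease UMIs. With doubled minimums the TIMP values were 4.41 and 1.90 in Pi16-low and 14.0 and 8.34 in Pi16/Dpp4 fibroblasts, endothelial genes higher on HFD numbered 1, and HFD macrophages held 43.8% of protease UMIs. With halved minimums the Pi16/Dpp4 values were 10.7 and 5.18.

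With mixed barcodes in each class, HFD TIMP values were 1.92 in Pi16-low, 5.51 in Pi16/Dpp4 fibroblasts and 1.19 in macrophages, and endothelial genes higher on HFD numbered 1. Fibroblast shares were then 72.4 and 56.2% of TIMP and 78.3 and 48.7% of protease UMIs, and macrophage shares 19.2 and 48.5% of protease UMIs. With no UMI minimum, genes higher on HFD numbered 5 in Pi16/Dpp4 fibroblasts, 3 in endothelial barcodes and 5 in macrophages, and 2 were lower in Pi16-low fibroblasts. Without Scrublet doublets, fibroblast shares were 70.9 and 53.4% of TIMP and 76.7 and 46.2% of protease UMIs, and HFD macrophages held 47.4% of protease UMIs.

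Without mesothelial barcodes the Pi16/Dpp4 TIMP values were 10.3 and 4.67, and fibroblasts held 66.2 and 47.2% of TIMP UMIs. Without each gene's top barcode, HFD macrophages had 1.41 TIMP UMIs per protease UMI and 39.9% of protease UMIs, HFD fibroblasts held 49.2% of protease and 49.5% of TIMP UMIs, and 0 genes stood above the rest in mural barcodes. Without the top 5, macrophage TIMP values were 6.01 and 2.74, 0 genes stood above the rest in macrophages and 0 in mural barcodes, fibroblasts held 68.8 and 47.3% of TIMP UMIs and, on HFD, 59.2% of protease UMIs, and HFD macrophages held 26.0% of protease UMIs. Scaling by the median of gene ratios left 0 genes above the rest in mural barcodes. Of 240 values of single-gene ratios under alternatives, 230 stayed on their side of 2-fold.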

Other observations

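The 28 HFD and 14 LFD barcodes that met other combinations of rules carried RNA of several sources at once. On HFD they held 84 Mmp12 UMIs, 64 of them in a single barcode, and 166 Timp1 UMIs, with 346 CPM of Timp1 (296 to 403). Timp3 was at 1012 CPM on LFD (896 to 1139) and 1008 CPM on HFD (920 to 1102) in them. In the 33 HFD dendritic barcodes Timp2 was at 53.0 CPM (28.2 to 90.6), seen in 7 barcodes, against 1078 CPM in macrophages of that library.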
